A study of Mus musculus with 9 samples.

Results

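The 10 genes described here belong to the major histocompatibility complex (MHC) class I pathway of the mouse and are 10 of 56953 genes measured in cultured cardiac fibroblasts that carried 1 of 3 adenoviruses. They were chosen by name, as the class I heavy chains H2-K1, H2-D1, H2-Q4, H2-Q6, H2-Q7 and H2-T23, the light chain B2m, and the peptide loading genes Tap1, Tap2 and Tapbp. Each had 1 line in the deposited expression table, and all 10 passed the filter of at least 1 TPM (reads per transcript length, scaled to the library total) in at least 3 of the 9 libraries, as did 14215 genes in all. H2-Q6 and H2-Q7 passed it through the 3 libraries labelled Ad-shJP2 alone, so that they had to differ between groups to be tested.

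The study compared 3 groups of 3 libraries. The first was infected with an adenovirus labelled JP2 (Ad-JP2), which carries junctophilin-2, a protein that bridges the endoplasmic reticulum and the cell membrane. The second received an adenovirus labelled shJP2 (Ad-shJP2), named for a short hairpin RNA against it, and the third, the control, an adenovirus with green fluorescent protein (Ad-GFP). All groups were wildtype primary cells from hearts of adult male C57BL/6N mice, freed of cardiomyocytes by settling and harvested after 72 h with virus. All 3 groups were infected, so the effect of infection itself was not measured. The promoters of the viruses, the hairpin's sequence and the number of animals or cultures behind the 3 libraries of a group are not stated in the labels. P-values therefore measure only the spread between these libraries, which may be technical.

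Class I molecules show peptides from inside the cell to CD8 T cells and natural killer cells. A heavy chain pairs with beta-2-microglobulin in the endoplasmic reticulum and is held by chaperones until a peptide fits. The proteasome cuts the peptides, the transporter TAP1-TAP2 carries them in, and tapasin joins the transporter to the waiting heavy chain. Nearly all nucleated cells make class I molecules, fibroblasts among them, and interferons are known to raise their level through transcription factors that bind the promoters of these genes.

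The depth recovered from the steps between low values was 36.9 to 40.9 M reads in Ad-JP2, 21.3 to 33.3 M reads in Ad-shJP2 and 40.2 to 45.7 M reads in Ad-GFP libraries. Jph2, the gene that the labels name, had 737, 691 and 637 TPM in Ad-JP2 libraries, against 132, 127.5 and 128 TPM in Ad-GFP libraries, a 5.32-fold higher mean (adjusted p = 3.1e-08 with limma). In the libraries labelled Ad-shJP2 it had 116.5, 123 and 119 TPM. Its log2 difference from Ad-GFP was -0.11 (adjusted p = 0.072 with limma), no larger than the median of all genes tested, -0.11, and it was 0.00 after median-of-ratios scaling. The difference passed the threshold at the same size when Ad-JP2 replicate 1 (adjusted p = 0.03) or replicate 3 (adjusted p = 0.018) was left out of the limma fit, with only the 2 groups fitted (adjusted p = 0.017), and with quantile normalization (-0.13, adjusted p = 0.024), where the median of all genes was 0.02. Whether the Jph2 message was lower than the general shift thus depended on the normalization, and every direction given below for Ad-shJP2 is that of libraries so labelled.

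Markers of fibroblasts were abundant in all 9 libraries, with 1624 to 1713 TPM of Col1a1, a collagen chain, in Ad-JP2, 947 to 976 TPM in Ad-shJP2 and 1539 to 1591 TPM in Ad-GFP libraries. Markers of macrophages were abundant too. Lyz2, a lysozyme, had 1542 to 1565 TPM in Ad-JP2, 1994 to 2048 TPM in Ad-shJP2 and 1715 to 1744 TPM in Ad-GFP libraries. The 17 macrophage and leukocyte markers summed to 3609 to 3672 TPM in Ad-JP2, 4468 to 4537 TPM in Ad-shJP2 and 3902 to 3944 TPM in Ad-GFP libraries. The 12 fibroblast markers summed to 11485 to 12247 TPM in Ad-JP2, 7818 to 8055 TPM in Ad-shJP2 and 11700 to 11807 TPM in Ad-GFP libraries. Of 14 lymphocyte and natural killer markers, 8 were listed at 0 in all 9 libraries, Cd8a and Ncr1 among them, and the sum did not exceed 2.01 TPM in any library. Of 7 dendritic cell markers, 3 (Flt3, Clec9a and Siglech) were at 0 in all libraries. In such bulk samples, fewer cells of a type and less RNA per cell cannot be told apart.

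The promoters of the heavy chain genes are shown because 5 of the 6 share a stretch that holds the letters of a kappa B site. Windows from 250 bases before to 50 after the start were taken from RefSeq (GRCm38.p6, an older build than that of the expression values), which gave one for 9 of the 10 genes. A stretch of 60 bases of each is printed, written on the gene's own strand. The first run of capitals marks the letters GGGNNTTCC, which kappa B sites carry, and the second marks the longest run, CAGTTTCACTTCTGC, that the 5 share after it, which was looked for after the windows had been read.
H2-K1, chr17:34000409-34000468, minus strand: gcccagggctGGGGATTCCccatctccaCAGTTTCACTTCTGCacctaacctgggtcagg
H2-D1, chr17:35262913-35262972, plus strand: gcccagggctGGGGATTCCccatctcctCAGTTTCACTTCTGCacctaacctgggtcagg
H2-Q4, chr17:35379434-35379493, plus strand: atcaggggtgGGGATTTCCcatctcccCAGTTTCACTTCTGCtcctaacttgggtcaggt
H2-Q6, chr17:35424667-35424726, plus strand: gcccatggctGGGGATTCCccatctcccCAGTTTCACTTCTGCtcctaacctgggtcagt
H2-Q7, chr17:35439012-35439071, plus strand: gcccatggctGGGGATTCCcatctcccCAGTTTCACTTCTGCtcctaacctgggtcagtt

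The 2 runs are 8 bases apart in H2-Q4 and H2-Q7 and 9 bases apart in H2-K1, H2-D1 and H2-Q6. GGGNNTTCC, on either strand, was in 5.82% of 32851 promoter windows. The 15-base run was in 7 windows (0.0213%), all of class I genes, namely both windows of H2-K1 and 1 each of H2-D1, H2-Q4, H2-Q6, H2-Q7 and the next gene along, H2-Q10. H2-T23, the sixth heavy chain, had neither run. These genes descend from duplications, so shared letters are no count of separate sites, and a match is a description of letters only.

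The windows of H2-T23, B2m and Tap1 lack that block, as does the window of Tapbp, and H2-T23, Tap1 and Tapbp were called higher in Ad-shJP2 like the heavy chains that have it. The first 3 are shown whole, H2-T23 and B2m for the letters marked in them and Tap1 for the bases it shares with its neighbour. Capitals mark the core letters of an interferon-stimulated response element, GAAA repeated with 2 bases of any kind between, on either strand.
H2-T23, chr17:36032652-36032951, minus strand: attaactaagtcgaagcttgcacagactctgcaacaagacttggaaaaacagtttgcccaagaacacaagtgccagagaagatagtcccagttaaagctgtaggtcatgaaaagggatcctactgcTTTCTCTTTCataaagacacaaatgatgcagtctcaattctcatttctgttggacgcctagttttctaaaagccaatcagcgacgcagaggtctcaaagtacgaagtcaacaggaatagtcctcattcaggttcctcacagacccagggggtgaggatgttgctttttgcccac
B2m, chr2:122147437-122147736, plus strand: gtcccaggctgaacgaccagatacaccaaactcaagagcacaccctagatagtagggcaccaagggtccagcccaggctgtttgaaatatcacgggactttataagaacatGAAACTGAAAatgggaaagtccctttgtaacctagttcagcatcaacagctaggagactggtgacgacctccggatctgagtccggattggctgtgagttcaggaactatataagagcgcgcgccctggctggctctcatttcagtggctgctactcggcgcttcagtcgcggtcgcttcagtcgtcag
Tap1, chr17:34187306-34187605, plus strand: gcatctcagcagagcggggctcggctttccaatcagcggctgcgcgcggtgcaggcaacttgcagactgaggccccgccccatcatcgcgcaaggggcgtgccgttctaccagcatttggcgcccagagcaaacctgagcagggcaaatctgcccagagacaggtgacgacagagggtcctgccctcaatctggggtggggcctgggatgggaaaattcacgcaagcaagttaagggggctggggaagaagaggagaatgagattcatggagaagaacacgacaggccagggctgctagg

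These core letters were in the windows of H2-T23 and B2m, 2 of the 9, and in 3.44% of all windows. Only exact matches were counted, so a window without them may still hold a variant of the element. The run that the heavy chain blocks share was not compared with such variants. CCAAT, the letters of the Y box of MHC promoters, was in all 9 windows and in 37.4% of all windows. TGACG, letters of the X2 box of the same promoters, was in 6 of the 9 and in 20.8% of all windows. TTCNNNGAA, the letters of a gamma-activated site, was in none of the 9 and in 8.3% of all windows. The Tap1 window shares 275 bases, read on the opposite strand, with that of its neighbour Psmb9, an immunoproteasome subunit, and the order of genes on chromosome 17 is Psmb9, Tap1, Psmb8 and Tap2. Of the 10 genes, 9 lie on chromosome 17, and B2m lies on chromosome 2.

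TPM is a value per length, so levels of different genes can be set side by side within a library. In Ad-JP2 and in Ad-GFP libraries alike the order of mean TPM was B2m, H2-D1, H2-K1, Tapbp, H2-T23, Tap2, Tap1, H2-Q4, H2-Q7 and H2-Q6. Library values of neighbours overlapped for no pair in Ad-JP2 and for H2-Q7 and H2-Q6 in Ad-GFP. B2m averaged 1646 ± 15.8 TPM in Ad-JP2, 1302 ± 31.6 TPM in Ad-shJP2 and 1495 ± 15.3 TPM in Ad-GFP libraries (SD, n = 3 each). It stood above 99.4% of the genes tested in Ad-JP2, 99.2% in Ad-shJP2 and 99.3% in Ad-GFP. H2-Q6 averaged 0.229 ± 0.0312 TPM in Ad-JP2, 3.58 ± 0.248 TPM in Ad-shJP2 and 0.311 ± 0.113 TPM in Ad-GFP. In Ad-shJP2 libraries Tap1 and H2-Q4 stood above Tap2, and H2-Q6 and H2-Q7 overlapped. The mean level of H2-Q4 was above 69.5% of the genes tested in Ad-shJP2 and above 39.9% in Ad-GFP, and that of Tap1 above 72.4% in Ad-shJP2 and above 47.0% in Ad-GFP. The level of B2m rests on a deposited effective length of 397.59 bases for a gene length of 860 bases, the one member for which these differ so widely.

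**Figure D1:**
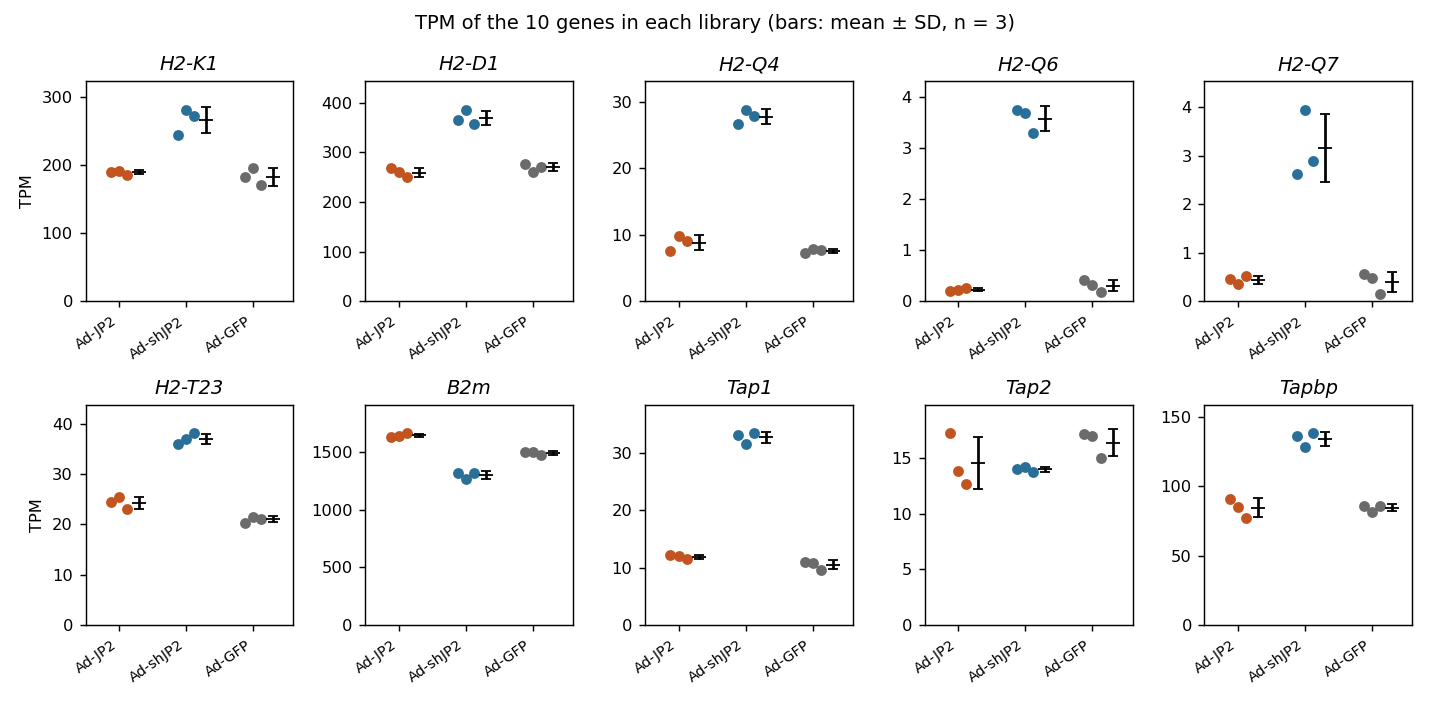
TPM of the 10 genes in each of the 9 libraries, with Ad-JP2, Ad-shJP2 and Ad-GFP from left to right, a point per library, and mean ± SD bars (n = 3); each panel has its own linear axis from 0. In 8 panels all 3 Ad-shJP2 points lie above all others, B2m has them below all others before correction for GC content and length, and Tap2 has points of Ad-JP2 on both sides of them. Of all genes tested, 65.3% had no overlap between Ad-shJP2 and Ad-GFP, and 67.1% none between Ad-JP2 and Ad-shJP2. H2-Q6 and H2-Q7 had to be high in Ad-shJP2 to be tested.

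The heavy chains carry the peptide groove, and H2-K1 and H2-D1 are the classical molecules of this strain. In the libraries labelled Ad-shJP2 all 6 heavy chains measured here were higher than in Ad-GFP libraries, in a comparison that called 59.4% of all genes (21.8% higher), and H2-Q6 and H2-Q7 were tested only because they were high there. The 2 abundant classical genes differed least in fold, and the 3 genes of the Qa region, H2-Q4, H2-Q6 and H2-Q7, differed most. Ad-JP2 libraries were close to Ad-GFP libraries, and of the 6 genes H2-T23 alone passed the test there, beside 15.0% of all genes.

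H2-K1 had 190, 192 and 186 TPM in Ad-JP2, 244, 281 and 273 TPM in Ad-shJP2, and 183, 196 and 170 TPM in Ad-GFP libraries. All Ad-shJP2 values lay above the others, while Ad-JP2 and Ad-GFP overlapped. The mean in Ad-shJP2 was 1.45-fold that in Ad-GFP (log2 difference 0.54, SE 0.06, adjusted p = 6.1e-05 with limma). For Ad-JP2 against Ad-GFP the log2 difference was 0.05, with a 95% interval of -0.09 to 0.19.

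H2-D1, the most abundant heavy chain in every group, had 268, 260.1 and 249 TPM in Ad-JP2, 365, 385 and 357 TPM in Ad-shJP2, and 277, 261 and 271 TPM in Ad-GFP libraries. Again Ad-shJP2 stood apart and the other groups overlapped. Its mean in Ad-shJP2 was 1.37-fold that in Ad-GFP (log2 difference 0.45, SE 0.04, adjusted p = 1e-05 with limma). The Ad-JP2 difference from Ad-GFP was -0.06 on the log2 scale, within an interval of -0.15 to 0.03, and 0.00 after correction for GC content and length.

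H2-Q4 encodes a chain known as Qb-1 that can be secreted. It had 7.58, 9.78 and 9.07 TPM in Ad-JP2, 26.6, 28.8 and 27.9 TPM in Ad-shJP2, and 7.26, 7.81 and 7.69 TPM in Ad-GFP libraries. All 3 Ad-shJP2 values lay above the 6 others. The mean was 3.66-fold that in Ad-GFP (log2 difference 1.74, SE 0.08, adjusted p = 2.6e-07 with limma). Ad-JP2 overlapped Ad-GFP and its log2 difference of 0.19 did not pass the test (adjusted p = 0.2 with limma). It passed when Ad-JP2 replicate 1, the lowest of its group, was left out (0.28, adjusted p = 0.028 with limma).

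H2-Q6 and H2-Q7 encode Qa-2, a nonclassical molecule attached to the membrane by a lipid anchor. H2-Q6 had 0.202, 0.221 and 0.263 TPM in Ad-JP2, 3.76, 3.69 and 3.30 TPM in Ad-shJP2, and 0.417, 0.325 and 0.192 TPM in Ad-GFP libraries. These values come from about 9.36, 9.32 and 12.5 reads in Ad-JP2, 101, 155 and 134 reads in Ad-shJP2, and 22.5, 15.5 and 9.62 reads in Ad-GFP libraries. The ratio of means of Ad-shJP2 to Ad-GFP was 11.5, and the log2 difference was 1.81 (SE 0.10, adjusted p = 7.9e-07 with limma) with a pseudocount of 1 and 3.20 with 0.1.

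H2-Q7 had 0.459, 0.354 and 0.521 TPM in Ad-JP2, 2.63, 3.95 and 2.89 TPM in Ad-shJP2, and 0.562, 0.478 and 0.161 TPM in Ad-GFP libraries. Both Qa-2 genes were thus low in the 6 libraries without the hairpin label and reached several TPM in the 3 with it. For H2-Q7 the ratio of means was 7.88, and the log2 difference was 1.57 (SE 0.16, adjusted p = 2.6e-05 with limma) with a pseudocount of 1 and 2.79 with 0.1. As the filter admitted both genes through Ad-shJP2, their calls carry less weight than those of the other members. In Ad-JP2 against Ad-GFP neither passed the test, at -0.09 for H2-Q6 and 0.05 for H2-Q7, and the second was -0.07 without Ad-GFP replicate 3.

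H2-T23 encodes Qa-1, which presents peptides cut from the leaders of other class I chains and is read by natural killer receptors. It had 24.4, 25.4 and 23.1 TPM in Ad-JP2, 36.1, 37.0 and 38.1 TPM in Ad-shJP2, and 20.4, 21.6 and 21.1 TPM in Ad-GFP libraries. The 3 groups did not overlap, with Ad-shJP2 highest and Ad-GFP lowest. Against Ad-GFP the mean was 1.76-fold in Ad-shJP2 (log2 difference 0.79, SE 0.05, adjusted p = 1e-06 with limma) and 1.16-fold in Ad-JP2 (0.20, SE 0.05, adjusted p = 0.02 with limma). The Ad-JP2 call was lost without Ad-GFP replicate 1 (0.18, adjusted p = 0.078 with limma) or replicate 3 (0.20, adjusted p = 0.058), without Ad-JP2 replicate 1 (0.20, adjusted p = 0.061) or replicate 2 (0.17, adjusted p = 0.076), and with quantile normalization (0.12, adjusted p = 0.093).

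Summed over the 6 genes, heavy chains reached 482 ± 11.98 TPM in Ad-JP2, 706 ± 31.4 TPM in Ad-shJP2 and 482 ± 10.3 TPM in Ad-GFP libraries (SD, n = 3 each). As one feature in the fit, the sum differed by 0.00 on the log2 scale in Ad-JP2 and by 0.55 in Ad-shJP2, each against Ad-GFP, and the second passed the test. H2-K1 and H2-D1 made up 93.0% of the sum in Ad-JP2, 89.9% in Ad-shJP2 and 93.9% in Ad-GFP. The share of H2-Q4, H2-Q6 and H2-Q7 was 1.97% ± 0.25 in Ad-JP2, 4.88% ± 0.0338 in Ad-shJP2 and 1.72% ± 0.0423 in Ad-GFP libraries. The Qa region genes thus had a larger share in all 3 Ad-shJP2 libraries, with no test of the share. The ratio of H2-D1 to H2-K1 was 1.37 ± 0.0367 in Ad-JP2, 1.39 ± 0.094 in Ad-shJP2 and 1.48 ± 0.134 in Ad-GFP, with overlapping libraries.

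Reads shared between these paralogs limit the split among them. Of the 31-base words in its annotated transcripts, another gene also held 50.3% for H2-Q6, 39.1% for H2-Q7, 38.4% for H2-Q4, 26.7% for H2-D1, 24.5% for H2-T23 and 22.8% for H2-K1. H2-Q6 shared most with H2-Q4 (24.6%), H2-Q7 with H2-Q10 (22.4%), and H2-K1 and H2-D1 with each other (11.1% of the H2-K1 words and 13.8% of the H2-D1 words). H2-Q8 and H2-Q9 had no line in the deposited expression table, so reads from them, if any, could not be counted apart. The values of H2-Q4, H2-Q6 and H2-Q7 are therefore uncertain as single genes. Their sum was 9.49 ± 1.10 TPM in Ad-JP2, 34.5 ± 1.73 TPM in Ad-shJP2 and 8.30 ± 0.289 TPM in Ad-GFP libraries. The shares were 4.62% for Tapbp, 1.34% for Tap2, 0.825% for Tap1 and 0.0% for B2m.

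B2m encodes the light chain that every class I heavy chain needs to reach the surface. It had 1631, 1645 and 1663 TPM in Ad-JP2, 1323, 1266 and 1316 TPM in Ad-shJP2, and 1505, 1503 and 1478 TPM in Ad-GFP libraries. The groups did not overlap, and before correction for GC content and length Ad-shJP2 was lowest, opposite to the heavy chains. Against Ad-GFP, B2m was 1.10-fold in Ad-JP2 (log2 difference 0.14, SE 0.02, adjusted p = 0.0019 with limma), but -0.11 (adjusted p = 0.0056) after correction for GC content and length. In Ad-shJP2 the mean fell by 12.95% (-0.20, SE 0.02, adjusted p = 3.9e-05 with limma), but it was 0.10 higher on the log2 scale (adjusted p = 0.0018) after that correction. The direction of B2m was thus reversed by the correction in both comparisons, with a call each time. The GC content of its longest transcript was 41.2%, against 52.1% to 57.1% for the other 9 genes.

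As deposited, the ratio of B2m to the summed heavy chains was 3.42 ± 0.118 in Ad-JP2, 1.85 ± 0.124 in Ad-shJP2 and 3.10 ± 0.0352 in Ad-GFP libraries (SD, n = 3 each). The ratio was lowest in the 3 Ad-shJP2 libraries, at 1.71 to 1.95. Even with the corrected B2m difference of 0.10, the heavy chain genes H2-D1 (0.35) and H2-K1 (0.44) differed more from Ad-GFP under the same correction.

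**Figure D2:**
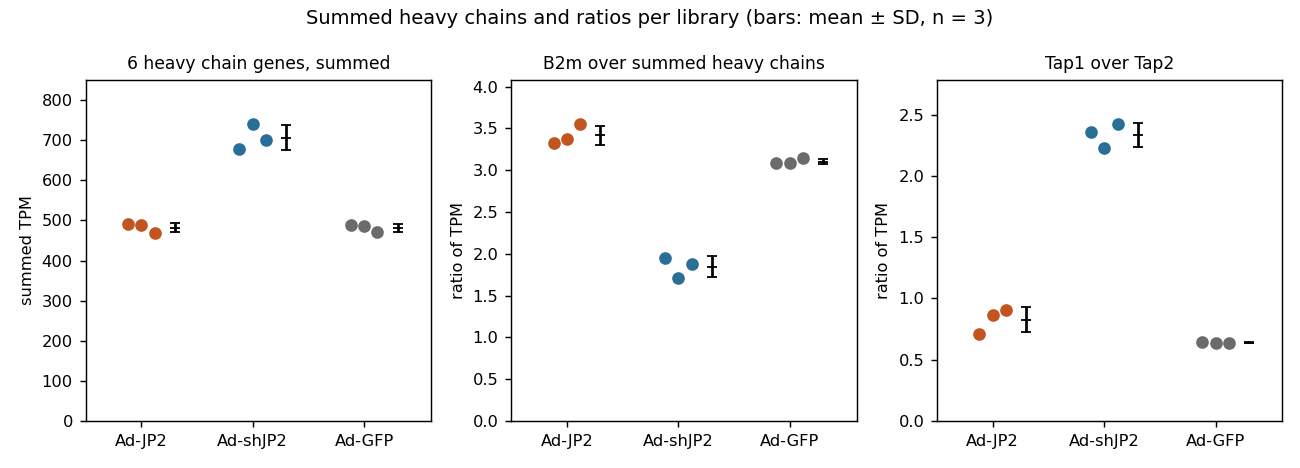
Summed TPM of the 6 heavy chain genes, the ratio of B2m to that sum and the ratio of Tap1 to Tap2, with a point per library, mean ± SD bars (n = 3) and linear axes from 0, for Ad-JP2, Ad-shJP2 and Ad-GFP from left to right. Ad-shJP2 libraries have the highest sums, the lowest B2m ratios (as deposited, without GC content and length correction) and Tap1 to Tap2 ratios of 2.23 to 2.42, against 0.635 to 0.643 in Ad-GFP.

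Tap1 and Tap2 encode the partner chains of the peptide transporter, and in Ad-shJP2 the first was called higher and the second was not. Tap1 had 12.2, 11.98 and 11.5 TPM in Ad-JP2, 33.1, 31.5 and 33.4 TPM in Ad-shJP2, and 11.1, 10.8 and 9.59 TPM in Ad-GFP libraries. No groups overlapped. The mean in Ad-shJP2 was 3.12-fold that in Ad-GFP (log2 difference 1.55, SE 0.06, adjusted p = 7.2e-08 with limma). In Ad-JP2 the log2 difference of 0.17 did not pass the test (95% interval 0.03 to 0.30, adjusted p = 0.11 with limma).

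Tap2 had 17.2, 13.8 and 12.7 TPM in Ad-JP2, 14.0, 14.2 and 13.8 TPM in Ad-shJP2, and 17.2, 17.0 and 15.0 TPM in Ad-GFP libraries. The Ad-shJP2 values lay below all Ad-GFP values, and Ad-JP2 overlapped both. For Ad-shJP2 against Ad-GFP the log2 difference was -0.21 with an interval of -0.44 to 0.02 (adjusted p = 0.1 with limma), all of it below the Tap1 difference. It passed the threshold at -0.21 with Ad-JP2 replicate 1 out of the fit (adjusted p = 0.025) or with only the 2 groups fitted (adjusted p = 0.028). For Ad-JP2 the difference of -0.17 also passed without that library (-0.29, adjusted p = 0.043 with limma). Tap1 had 0.827 ± 0.104 times the TPM of Tap2 in Ad-JP2, 2.34 ± 0.101 times in Ad-shJP2 and 0.639 ± 0.00425 times in Ad-GFP libraries (SD, n = 3 each).

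Tapbp encodes tapasin. It had 90.6, 85.3 and 77.3 TPM in Ad-JP2, 136, 128 and 138 TPM in Ad-shJP2, and 85.9, 81.4 and 85.6 TPM in Ad-GFP libraries. Ad-shJP2 stood apart and was 1.59-fold Ad-GFP in the mean (log2 difference 0.66, SE 0.06, adjusted p = 1e-05 with limma). Ad-JP2 spanned the Ad-GFP values, with a log2 difference of 0.00 and an interval of -0.13 to 0.13.

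Left out of the counts that follow are H2-Q6 and H2-Q7, which had to be high in Ad-shJP2 to be tested. Of the 8 other members, 6 were called higher and 1 lower in Ad-shJP2 against Ad-GFP. Of all genes tested, 59.4% were called in that comparison, 21.8% higher and 37.7% lower, so that a call as such is common there. Corrected for GC content and length, the counts were 7 higher and 0 lower, beside 29.2% and 27.2% of all genes with a value. The median log2 difference of the 8 was 0.60, beside -0.11 over all genes tested. Values of the 2 groups did not overlap for any of the 8, nor for 65.3% of all genes tested.

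In Ad-JP2 against Ad-GFP, 2 of the 8, H2-T23 and B2m, were called higher and 0 lower with limma; at an unadjusted p under 0.05, 3 were higher and 0 lower. Over all genes tested 15.0% were called, 13.4% higher and 1.64% lower, so the members' share is near the background. Values of the 2 groups did not overlap for 3 of the 8 (H2-T23, B2m and Tap1), against 32.2% of all genes. With the correction the count was 1 higher (H2-T23) and 1 lower (B2m), beside 6.77% and 7.86%. The median log2 difference was 0.10 over the 8 and 0.01 over all genes.

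Set directly against each other, Ad-JP2 had 1 of the 8 higher and 6 lower than Ad-shJP2. Of all genes 64.4% were called in this comparison, 40.3% higher and 24.1% lower. After correction 0 of the 8 were higher and 7 lower, beside 29.1% and 33.4% of all genes, and values did not overlap for 7 of the 8, against 67.1%. The median log2 difference was -0.55 over the 8 and 0.10 over all genes. On the log2 scale Tap1 was lower in Ad-JP2 by 1.39 and H2-Q4 by 1.56. H2-T23 was lower by 0.59, Tapbp by 0.66, H2-D1 by 0.51 and H2-K1 by 0.49, each with an adjusted p of at most 9.3e-05 with limma. H2-Q6 was lower by 1.90 and H2-Q7 by 1.51, but both had to be high in Ad-shJP2 to be tested, so their direction here carries little weight. B2m was 0.34 higher, but -0.22 after correction for GC content and length, and Tap2 differed by 0.04 (interval -0.19 to 0.27). The 3 comparisons share libraries in pairs and are not independent of each other.

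**Figure D3:**
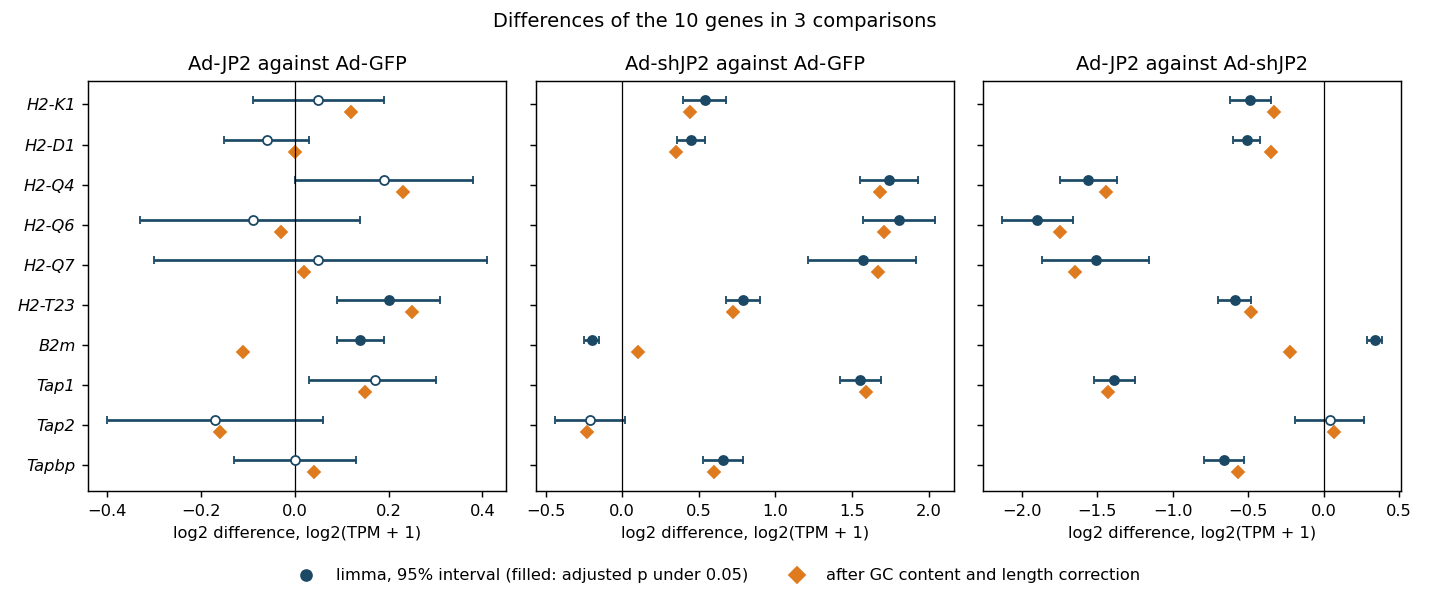
Log2 differences of the 10 genes on the log2(TPM + 1) scale in the 3 comparisons, each panel with its own axis; circles are limma estimates with 95% intervals, filled where the adjusted p is under 0.05, and diamonds are estimates after correction for GC content and length. In Ad-shJP2 against Ad-GFP, 8 filled circles lie right of 0, Tap2 is open, and B2m is left of 0 (-0.20) with its diamond right of it (0.10), a reversal also seen in the other panels. In that comparison 21.8% of all genes tested were called higher and 37.7% lower, and H2-Q6 and H2-Q7 had to be high in Ad-shJP2 to be tested.

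Across the 9 libraries, 8 members had a Pearson r of 0.964 to 0.989 with the members' mean standardised profile, B2m had -0.873 and Tap2 -0.30. The mean profile contains each member itself, so a member's r is in part fixed by construction. It also contains H2-Q6 and H2-Q7, which had to be high in Ad-shJP2 to be tested. These correlations describe 9 libraries in which Ad-shJP2 stood apart, with B2m before correction for GC content and length. The 8 other genes most like that profile, among genes with a mean of at least 5 TPM, were Hk1 (r = 0.997), Ruvbl2 (0.995), Ccl12 (0.995), Tmem109 (0.995), Pgs1 (0.995), Cluh (0.994), Ints15 (0.994) and Tnk2 (0.993). Hk1, a hexokinase, averaged 83.2 TPM in Ad-JP2, 110.2 TPM in Ad-shJP2 and 82.2 TPM in Ad-GFP libraries. Ccl12, a chemokine for monocytes, averaged 61.8 TPM in Ad-JP2, 107 TPM in Ad-shJP2 and 58.4 TPM in Ad-GFP libraries.

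Markers of macrophages and of fibroblasts also differed between the groups, not all in the same direction. In Ad-shJP2 against Ad-GFP, 11 of the 17 markers of macrophages and leukocytes were higher and 3 lower, beside 21.8% and 37.7% of all genes. Of 11 tested fibroblast markers, 1 was higher and 10 were lower. Without Ptprc and Lum, which passed the filter through Ad-JP2 alone, the counts were 11 and 2 of 16, and 1 and 9 of 10. After correction for GC content and length, 10 of the 17 were higher and 2 lower, and 1 of the 11 was higher and 9 lower. The shares of all genes were then 29.2% higher and 27.2% lower. Among the macrophage markers, Fcgr1, a receptor for antibody, averaged 14.3 TPM in Ad-shJP2 and 6.27 TPM in Ad-GFP, but Mrc1, the mannose receptor, 1.97 TPM in Ad-shJP2 and 8.16 TPM in Ad-GFP. Ptprc, the pan-leukocyte marker CD45, was low, at 1.81 to 2.20 TPM in Ad-JP2, 0.177 to 0.309 TPM in Ad-shJP2 and 0.537 to 0.669 TPM in Ad-GFP libraries. In Ad-JP2 against Ad-GFP 2 of the 17 were higher and 4 lower. Their part in the class I differences was not tested.

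The other class I and class I-like heavy chains went in both directions in Ad-shJP2. Lists of the pathway are given against 21.8% higher and 37.7% lower and a median of -0.11 over all genes in Ad-shJP2 (29.2% and 27.2% after correction for GC content and length), and 13.4% higher and 1.64% lower in Ad-JP2 (6.77% and 7.86% after correction). Of 23 such heavy chain genes present, 11 were tested, but H2-Q1, H2-Q5 and H2-T24 passed the filter through Ad-shJP2 alone. Of the other 8, 4 were higher and 4 lower than in Ad-GFP, with a median of 0.01 (3 and 2 after correction). H2-T22 and its relative H2-T10, ligands of gamma delta T cells, were both higher. H2-T22 averaged 47.8 TPM in Ad-JP2, 79.7 TPM in Ad-shJP2 and 44.4 TPM in Ad-GFP libraries, 1.80-fold in Ad-shJP2 (log2 difference 0.83, adjusted p = 1.4e-07 with limma). H2-T10 averaged 4.02 TPM in Ad-shJP2 and 1.82 TPM in Ad-GFP (adjusted p = 0.00063 with limma). H2-T24 averaged 1.65 TPM in Ad-shJP2 and 0.291 TPM in Ad-GFP, and H2-Q5 1.76 TPM in Ad-shJP2 and 0.0783 TPM in Ad-GFP, a level near that of 3 reads.

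Mr1, which presents vitamin metabolites to mucosal-associated invariant T cells, went the other way. It averaged 14.7 TPM in Ad-JP2, 3.40 TPM in Ad-shJP2 and 10.099 TPM in Ad-GFP libraries. Against Ad-GFP its log2 difference was 0.50 in Ad-JP2 (adjusted p = 0.00056 with limma), but 0.24 (adjusted p = 0.032) after correction, and -1.33 in Ad-shJP2 (adjusted p = 2e-07). Mr1 was the 1 gene of this list called in Ad-JP2, and no gene of it was called lower there.

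The chaperones of peptide loading mostly fell in Ad-shJP2, unlike Tapbp, while its peptidases went both ways. Of 15 genes of heavy chain folding and peptide trimming, 2 were higher and 10 lower against Ad-GFP, with a median of -0.49 (3 and 8, median -0.15, after correction). Canx, calnexin, which holds new heavy chains, averaged 231 TPM in Ad-JP2, 58.0 TPM in Ad-shJP2 and 146 TPM in Ad-GFP libraries. Its log2 difference was 0.66 in Ad-JP2 (adjusted p = 0.00085 with limma) and -1.32 in Ad-shJP2 (adjusted p = 1.8e-06), each against Ad-GFP, and after correction 0.31 in Ad-JP2 (adjusted p = 0.034) and -0.85 in Ad-shJP2 (adjusted p = 2.3e-05). Hspa5, the chaperone BiP, averaged 548 TPM in Ad-JP2, 171 TPM in Ad-shJP2 and 426 TPM in Ad-GFP, with log2 differences from Ad-GFP of 0.36 in Ad-JP2 (0.17 after correction) and -1.32 in Ad-shJP2.

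Pdia3, the oxidoreductase ERp57 of the loading complex, averaged 265 TPM in Ad-shJP2 and 428 TPM in Ad-GFP (log2 difference -0.68, adjusted p = 0.00032 with limma). Calr, calreticulin, another chaperone of that complex, fell less, by 0.24 (adjusted p = 0.00025 with limma). Ganab, the catalytic chain of glucosidase II, which trims the sugars these chaperones read, fell by 0.81 (adjusted p = 4.9e-08). Tapbpl, a peptide editor related to tapasin, averaged 3.68 TPM in Ad-shJP2 and 3.76 TPM in Ad-GFP. Its log2 difference was -0.03 (interval -0.29 to 0.24), and 0.06 under median-of-ratios scaling, 0.24 with quantile normalization and 0.06 without Ad-shJP2 replicate 3.

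Erap1, the aminopeptidase that trims peptides inside the endoplasmic reticulum, had 5.61, 5.33 and 2.98 TPM in Ad-shJP2, against 5.36, 6.00 and 9.25 TPM in Ad-GFP libraries. The groups overlapped and the difference of -0.49 did not pass the test (adjusted p = 0.088 with limma), with 0.10 after correction. Lnpep, an aminopeptidase of endosomes, differed by -0.96 in Ad-shJP2 and by 0.94 in Ad-JP2, and both calls were lost after correction (-0.26, adjusted p = 0.089, and 0.33, adjusted p = 0.10, with limma). In Ad-JP2 against Ad-GFP, 4 of the 15 genes were higher and 0 lower, beside 13.4% and 1.64% of all genes. The largest of these differences was that of Tpp2, a cytosolic peptidase, at 1.55 (11.5 TPM in Ad-JP2 and 3.29 TPM in Ad-GFP, adjusted p = 1.7e-05 with limma). In Ad-shJP2 against Ad-GFP, Tpp2 differed by -0.67 (adjusted p = 0.00034 with limma), but by -0.06 (adjusted p = 0.65) after correction. Thop1, another peptidase of the list, was called higher there before correction (0.53, adjusted p = 2e-05 with limma) and after it (0.46, adjusted p = 2.9e-05).

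Of 7 genes of the immunoproteasome, the form of the proteasome induced by interferon, and its activator, 6 were higher in Ad-shJP2 than in Ad-GFP and 0 lower, with a median of 0.34 (4 and 0 after correction). Psmb8, which lies between Tap1 and Tap2, had 15.5, 16.2 and 13.8 TPM in Ad-JP2, 26.8, 27.96 and 27.1 TPM in Ad-shJP2, and 14.3, 11.8 and 11.9 TPM in Ad-GFP libraries. It was 2.15-fold in Ad-shJP2 (log2 difference 1.05, adjusted p = 5.6e-06 with limma). In Ad-JP2 its difference of 0.24 did not pass the test (adjusted p = 0.093), but did without Ad-GFP replicate 1 (0.33, adjusted p = 0.022), without Ad-JP2 replicate 3 (0.31, adjusted p = 0.05) and after correction (0.30, adjusted p = 0.036).

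Psmb9, which shares the Tap1 promoter window, had 3.48, 2.18 and 3.93 TPM in Ad-JP2, 8.27, 7.04 and 6.99 TPM in Ad-shJP2, and 2.77, 2.99 and 2.39 TPM in Ad-GFP libraries. It was 2.74-fold in Ad-shJP2 (log2 difference 1.18, adjusted p = 0.00018 with limma). Psmb10, the third inducible subunit, averaged 61.9 TPM in Ad-shJP2 and 40.8 TPM in Ad-GFP, a log2 difference of 0.58 (adjusted p = 0.00016). Psme2, a chain of the PA28 activator, differed by 0.34 (adjusted p = 0.01 with limma), and by 0.24 after correction, where its call was lost. In Ad-JP2 limma called 0 of the 7, and 1 were higher and 0 lower at an unadjusted p under 0.05.

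Levels of the inducible subunits stayed far below those of their constitutive counterparts in all groups. Psmb8 had 0.0757 ± 0.00794 times the TPM of Psmb5 in Ad-JP2, 0.118 ± 0.00274 times in Ad-shJP2 and 0.0587 ± 0.00686 times in Ad-GFP libraries (SD, n = 3 each). Psmb9 had 0.0103 ± 0.00278 times that of Psmb6 in Ad-JP2, 0.0223 ± 0.00217 times in Ad-shJP2 and 0.00803 ± 0.000875 times in Ad-GFP. Psmb10 had 0.20 ± 0.00916 times that of Psmb7 in Ad-JP2, 0.24 ± 0.0293 times in Ad-shJP2 and 0.188 ± 0.00883 times in Ad-GFP. Of 5 constitutive genes, 3 were higher and 1 lower in Ad-shJP2 (median 0.10; 2 and 2, median -0.02, after correction), and 1 higher and 1 lower in Ad-JP2. Psme4, an activator of nuclear proteasomes, was the gene called lower in Ad-shJP2 before correction (-0.97, adjusted p = 0.00031 with limma, but -0.40, adjusted p = 0.032, after correction) and rose in Ad-JP2 (1.48, adjusted p = 0.00014).

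Factors that drive class I genes, or that carry or damp the interferon signal, were mostly higher in Ad-shJP2. Of 25 tested, Nlrc5 passed the filter through Ad-shJP2 libraries, with 1 other library at 1 TPM. Of the 24 others, 14 were higher and 5 lower than in Ad-GFP, with a median of 0.28 (14 and 3 after correction). Usp18, which is induced by interferon and damps its receptor, averaged 10.11 TPM in Ad-JP2, 59.6 TPM in Ad-shJP2 and 6.70 TPM in Ad-GFP libraries. It was 8.90-fold in Ad-shJP2 (log2 difference 2.98, adjusted p = 1.1e-09 with limma) and 1.51-fold in Ad-JP2 (0.53, adjusted p = 0.00016). Socs1 and Socs3, which also damp the signal, are counted in the list too. Socs1 averaged 2.66 TPM in Ad-shJP2 and 1.30 TPM in Ad-GFP, and Socs3 12.1 TPM in Ad-shJP2 and 8.29 TPM in Ad-GFP. Irf7, a transcription factor that amplifies interferon production, had 12.5, 13.9 and 11.4 TPM in Ad-JP2, 68.3, 68.3 and 66.3 TPM in Ad-shJP2, and 8.57, 7.95 and 8.93 TPM in Ad-GFP libraries. The 3 groups did not overlap, and the ordering was that of H2-T23.

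Stat2 and Irf9, components of the complex that binds interferon-stimulated response elements, were both higher in Ad-shJP2. Stat2 averaged 30.7 TPM in Ad-shJP2 and 7.48 TPM in Ad-GFP (log2 difference 1.90, adjusted p = 3.1e-08 with limma). Irf9 averaged 33.2 TPM in Ad-shJP2 and 15.0 TPM in Ad-GFP (1.10, adjusted p = 4.2e-07).

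Nlrc5, the transactivator that is specific to class I promoters, was low. It had 0.313, 1.00 and 0.616 TPM in Ad-JP2, 1.70, 1.56 and 1.08 TPM in Ad-shJP2, and 0.302, 0.588 and 0.395 TPM in Ad-GFP libraries. Ad-shJP2 lay above both other groups, with a log2 difference from Ad-GFP of 0.77 (adjusted p = 0.0044 with limma), a call that carries less weight as the gene was tested because it was high there. In Ad-JP2 the difference of 0.19 did not pass the test (interval -0.21 to 0.59). Irf1, an interferon regulatory factor that binds class I promoters, averaged 6.81 TPM in Ad-JP2, 12.9 TPM in Ad-shJP2 and 6.50 TPM in Ad-GFP libraries, with a difference of 0.89 in Ad-shJP2 (adjusted p = 5.7e-05 with limma).

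In Ad-JP2 against Ad-GFP, 6 of the 24 factors were higher and 0 lower, beside 13.4% and 1.64% of all genes, but 2 higher and 1 lower after correction, beside 6.77% and 7.86%. Messages of the interferons themselves were at or near 0. Ifnb1 was listed at 0 in 8 libraries and at 0.463 TPM in Ad-shJP2 replicate 3, and Ifng was listed at 0 in all 9. At these depths 3 reads on a gene of 1000 bases stand for 0.0872 to 0.176 TPM. For the lengths of these genes 3 reads stand for more, 0.145 to 0.291 TPM for Ifnb1 and 0.135 to 0.272 TPM for Ifng. Lower levels were not detectable, counting error alone considered. Of 8 tested interferon receptors and Janus kinases, 1 was higher and 5 lower in Ad-shJP2 (median -0.19; 2 and 3, median -0.08, after correction), and 2 higher and 0 lower in Ad-JP2. Jak1, a kinase of the type I and type II interferon receptors, averaged 93.4 TPM in Ad-JP2, 28.1 TPM in Ad-shJP2 and 73.7 TPM in Ad-GFP, a log2 difference of -1.36 in Ad-shJP2 (adjusted p = 4.9e-09 with limma). Jak2, which serves the interferon gamma receptor, averaged 7.79 TPM in Ad-JP2, 0.81 TPM in Ad-shJP2 and 2.58 TPM in Ad-GFP libraries, a log2 difference of -0.98 in Ad-shJP2 (-0.50 after correction). Ifnar1, a chain of the type I receptor, fell by 0.58 in Ad-shJP2 (adjusted p = 6.7e-06 with limma). Ifngr2 fell by 0.20 (adjusted p = 0.0071), a call lost after correction (-0.07) and under median-of-ratios scaling (-0.09).

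**Figure D4:**
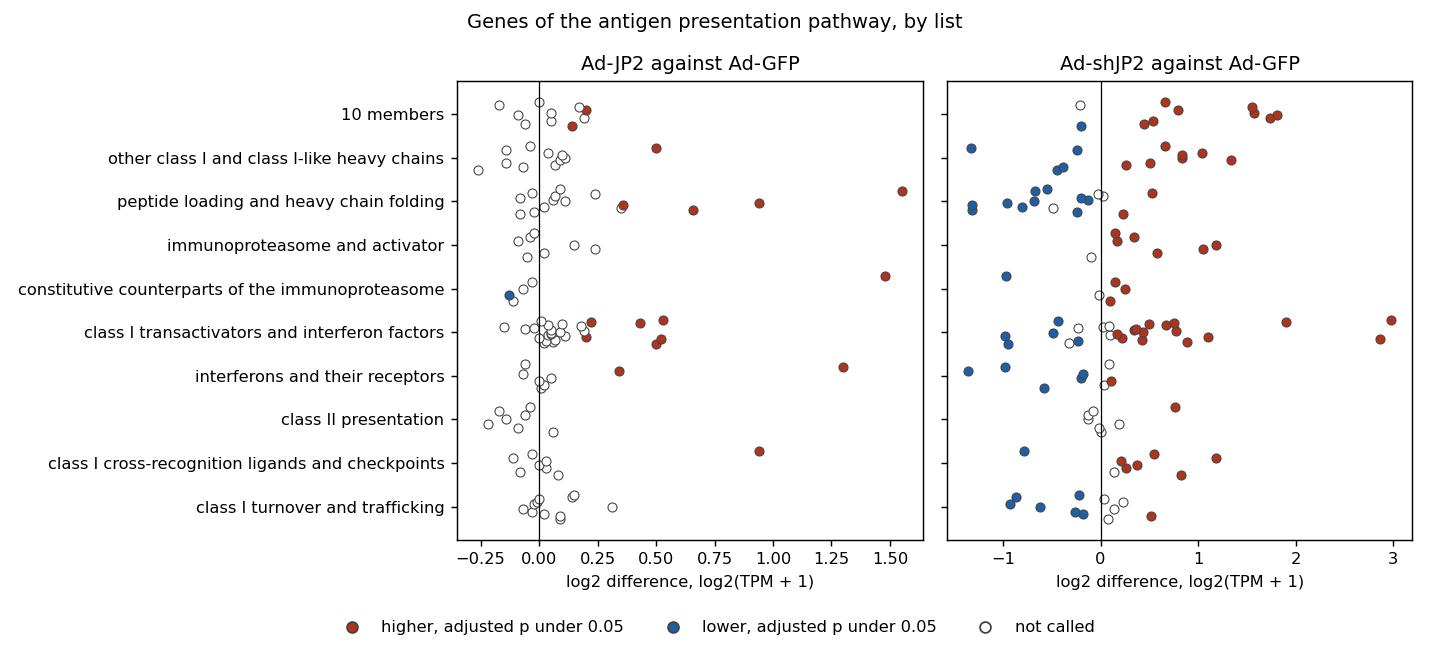
Log2 differences on the log2(TPM + 1) scale of the 10 members and of the genes of 9 pathway lists, a point per tested gene, for Ad-JP2 (left) and Ad-shJP2 (right) against Ad-GFP; red points are called higher, blue points lower (adjusted p under 0.05) and open points are not called, and the vertical spread within a row has no meaning. In the right panel the immunoproteasome row has 6 red and 0 blue points, the folding row 2 red and 10 blue, and the blue point of the members' row is B2m, which is higher after GC content and length correction. Of all genes tested, 21.8% were called higher and 37.7% lower in that comparison. H2-Q6, H2-Q7, H2-Q1, H2-Q5, H2-T24, Nlrc5 and Cd274 passed the filter through Ad-shJP2, so their red points there carry less weight. Marchf1 passed it through Ad-JP2.

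Few genes of class II presentation were called. Of 7 tested genes 1 was higher and 0 lower in Ad-shJP2 (median -0.02), and 2 higher and 1 lower after correction (median -0.12). In Ad-JP2 limma called 0, and 0 were higher and 1 lower at an unadjusted p under 0.05. After correction 0 were called higher and 1 lower there. The gene called higher in Ad-shJP2 before correction was Ifi30, a lysosomal reductase that prepares antigens. It averaged 88.5 TPM in Ad-JP2, 154 TPM in Ad-shJP2 and 90.8 TPM in Ad-GFP libraries (log2 difference 0.76 in Ad-shJP2, adjusted p = 1.9e-06 with limma).

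Ligands and checkpoints read together with class I were higher in Ad-shJP2 for 5 of 7 tested genes and lower for 1, with a median of 0.26 (6 and 0 after correction). An eighth, Cd274, passed the filter through Ad-shJP2 alone and is left out of these counts. Raet1d, a stress ligand of the natural killer receptor NKG2D, averaged 7.07 TPM in Ad-JP2, 18.6 TPM in Ad-shJP2 and 7.69 TPM in Ad-GFP libraries (log2 difference 1.18 in Ad-shJP2, adjusted p = 1.7e-06 with limma). Raet1e, of the same family, differed by 0.55 (adjusted p = 0.00016). Cd274, the checkpoint ligand PD-L1, averaged 2.00 TPM in Ad-shJP2 and 0.702 TPM in Ad-GFP. Ulbp1, another NKG2D ligand, was the 1 gene that fell (-0.78, adjusted p = 0.0017) and also the 1 that rose in Ad-JP2 (0.94, adjusted p = 0.0025), and both calls were lost after correction (-0.17 and 0.49).

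Genes of class I turnover and trafficking were called higher for 1 and lower for 5 of 10 in Ad-shJP2, with a median of -0.07 (2 and 4 after correction), leaving out Marchf1, which passed the filter through Ad-JP2 alone. In Ad-JP2 limma called 0 of the 11, and 3 were higher and 0 lower at an unadjusted p under 0.05. Sel1l, an adaptor that passes misfolded proteins out of the endoplasmic reticulum, averaged 59.8 TPM in Ad-JP2, 29.3 TPM in Ad-shJP2 and 54.3 TPM in Ad-GFP libraries (log2 difference -0.87 in Ad-shJP2, adjusted p = 2.3e-07 with limma, and -0.45 after correction). Marchf8, a ubiquitin ligase of surface receptors, averaged 24.02 TPM in Ad-JP2, 12.3 TPM in Ad-shJP2 and 24.4 TPM in Ad-GFP (-0.93, adjusted p = 2.7e-06).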

How the data were processed

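The libraries were made from polyA RNA with the TruSeq Stranded mRNA kit, per the labels' protocols. Tools named in the submitters' processing notes are DRAGEN, DESeq2 and Salmon, and the build named there is GRCm39, without role, order or version. The deposited values are TPM per gene as the authors computed them, in 1 column per library, beside 2 lengths per gene in bases, the gene length and the effective length. TPM keeps no depth, so read depth was recovered approximately from the steps of TPM times effective length between low genes. Of low genes, 95.5% came within 0.1 of a whole read in Ad-GFP replicate 3, but 42.2% to 61.5% in the other 8 libraries, so read counts in the text are estimates, and they cover counting error only.

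Genes with at least 1 TPM in at least 3 libraries (14215 of 56953) were transformed to log2(TPM + 1), which understates changes of low genes. Folds are ratios of mean TPM. All 9 libraries entered 1 model with 3 group means in limma 3.58.1 (R 4.3.3) with a mean-variance trend. Tests were two-sided, Benjamini-Hochberg adjustment ran over all 14215 genes, and a call is an adjusted p under 0.05. An exact permutation test of 3 against 3 libraries cannot go below p = 0.1 and was not used. The correction for GC content and length used the longest GENCODE vM21 transcript of 14025 genes (98.7% of those tested) and natural splines with 5 degrees of freedom. Shared 31-base words were counted in the same transcripts, and promoter windows came from RefSeq. The fit was checked on simulated data.

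The members, lists and alternatives were chosen with earlier results of these data known. Named genes were all 10 members, Jph2, up to 4 called genes per list and comparison with the largest differences, and 13 genes named whatever their values, of which 1 is not reported here. Genes outside this rule, such as marker genes, were named after their values were seen. Same-numbered libraries did not deviate together (correlations of -0.11 to 0.11), so numbers were not taken as pairs.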

Additional observations from a re-analysis of the deposited data

How the results depend on the processing

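Of 30 member results (10 genes in 3 comparisons), 19 kept direction and side of the threshold under every alternative run. The correction for GC content and length, with or without a replicate block, reversed B2m in all 3 comparisons (-0.11 in Ad-JP2 and 0.10 in Ad-shJP2 against Ad-GFP, and -0.22 in Ad-JP2 against Ad-shJP2). The sign also changed for H2-D1 (-0.06 to 0.00) and Tapbp (0.00 to 0.04) in Ad-JP2 against Ad-GFP, and for Erap1 (-0.49 to 0.10) in Ad-shJP2. Without the block, unlike B2m, none of these was called before or after the correction, and H2-D1 and Tapbp stayed close to 0. Erap1 was also reversed in Ad-JP2 against Ad-GFP (0.35 to -0.09) and in Ad-JP2 against Ad-shJP2 (0.84 to -0.19). In the second its call was lost (adjusted p of 0.0086 before and 0.49 after, with limma). Quantile normalization reversed H2-Q7 in Ad-JP2 against Ad-GFP (-0.02), Tap2 in Ad-JP2 against Ad-shJP2 (-0.21) and Tapbpl in Ad-shJP2 (0.24). Median-of-ratios scaling gave 0.00 for Jph2 and 0.06 for Tapbpl in Ad-shJP2, and -0.08 for Tap2 in Ad-JP2 against Ad-shJP2. With 1 library left out, H2-Q7 ranged from -0.07 to 0.14 and Tapbp from -0.05 to 0.06 in Ad-JP2 against Ad-GFP, Tapbpl from -0.09 to 0.06 in Ad-shJP2, and Tap2 from -0.07 to 0.13 in Ad-JP2 against Ad-shJP2. The causes were not tested. Median-of-ratios scaling moved the median of all genes in Ad-JP2 against Ad-shJP2 from 0.10 to -0.01 and quantile normalization to -0.11.

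In Ad-JP2 against Ad-GFP, members called fell to 1 of 10 with quantile normalization and ranged from 1 to 3 with 1 library left out. With the 6 heavy chains summed, 5 features gave 1 call there, as H2-T23 was then part of the sum, which was not called. They gave 4 calls in Ad-shJP2 against Ad-GFP and 4 in Ad-JP2 against Ad-shJP2, since fewer features were tested. Over all genes, 1902 were higher and 233 lower in Ad-JP2 against Ad-GFP. After correction for GC content and length 949 were higher and 1103 lower (836 and 950 with the replicate block added). The lower count was 399 with median-of-ratios scaling, 748 with quantile normalization, 100 without a mean-variance trend and 114 to 283 with 1 library left out. In Ad-JP2 against Ad-shJP2, 5570 were lower with quantile normalization, against 3421. The replicate block alone changed no member's call, with 1929 genes called between Ad-JP2 and Ad-GFP, 8226 between Ad-shJP2 and Ad-GFP, and 9009 between Ad-JP2 and Ad-shJP2.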

Other observations

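The other marker lists gave low sums. The 10 endothelial markers summed to 41.3 to 47.7 TPM in Ad-JP2, 37.7 to 49.9 TPM in Ad-shJP2 and 44.3 to 46.7 TPM in Ad-GFP libraries. The 8 mural cell markers summed to 48.9 to 50.6 TPM in Ad-JP2, 54.1 to 56.9 TPM in Ad-shJP2 and 47.3 to 50.6 TPM in Ad-GFP. The 8 cardiomyocyte markers had 36.4 to 41.7 TPM in Ad-JP2, 27.6 to 30.8 TPM in Ad-shJP2 and 42.4 to 42.9 TPM in Ad-GFP. The 9 epicardial and mesothelial markers had 27.4 to 30.3 TPM in Ad-JP2, 23.4 to 25.9 TPM in Ad-shJP2 and 25.9 to 27.3 TPM in Ad-GFP. The 6 Schwann and neural markers did not exceed 1.83 TPM in any library, and the 7 dendritic cell markers lay at 9.001 to 10.2 TPM in Ad-JP2, 7.44 to 8.79 TPM in Ad-shJP2 and 8.56 to 10.3 TPM in Ad-GFP. The part of these lists in the class I differences was not tested.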
